A study of Homo sapiens with 18 samples.

Results

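The difference between TC32 and TC71 in their response to 72 h of YK-4-279 was taken, gene by gene, as the 72 h change in TC32 minus the 72 h change in TC71. It used 12 of the 18 arrays of the series for its means, 3 in each of 4 groups, and gave 1 value for each of 12750 genes. TC32 and TC71 are established Ewing sarcoma cell lines, both labelled sensitive to the compound. The 4 groups were TC32 cells given 3 µM YK-4-279 for 72 h, untreated TC32 parental cells, TC71 cells given 3 µM for 72 h, and untreated TC71 parental cells. Adherent cells had grown for 24 h before the compound was added, and the labels do not mention a vehicle for the parental cells. The other 6 arrays, of clones made resistant over 7 months in each line, entered only the estimate of each gene's spread. Each of these 6 carries its own selection label, so they are not replicates, and differences between them enter that spread. A gene that varied between clones could therefore fail the test for that reason. The labels do not say whether arrays of a group came from separate cultures, so the p-values measure only the spread between these arrays.

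YK-4-279 is a small molecule made to keep the fusion protein EWS-FLI1, the driver of Ewing sarcoma, from binding RNA helicase A, which DHX9 encodes. Several gene programmes named below have known roles. DUX4 is a transcription factor of the cleavage-stage embryo, silent in most adult cells, which switches on a set of early-embryo genes that includes the TRIM48, PRAMEF, RFPL and KHDC1L genes. Cancer-testis antigens are germ-cell proteins that tumours often make again. The integrated stress response raises ATF4 and its target genes when cells lack amino acids or fold proteins poorly.

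Every value is on a log2 scale relative to the median of the same probe set over the 18 arrays, so a value shows no absolute level and the presence of Ewing sarcoma markers such as CD99 could not be checked. A difference of 1 is 2-fold. Group values below are array values in the order of replicates 1, 2 and 3, and a change in a line is the mean of its 72 h arrays minus the mean of its parental arrays. The number of arrays limits the precision: over the 8132 genes with a standard deviation (SD) of at least 0.1, the median half-width of the 95% interval of the line difference was 0.60.

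Some arrays stood apart from their group. Over 1794 genes with an SD above 0.5, the array labelled TC32 parental replicate 1 differed by a root mean square of 0.690 to 0.807 from the TC71 parental arrays and by 1.04 to 1.19 from the other TC32 parental arrays. At 76 genes that separated the other 5 TC32 arrays of these groups from the 6 TC71 arrays by at least 1, it lay nearer TC71 at 65 and nearer TC32 at 11. TC71 parental replicate 2 differed by 0.779 to 0.812 from the other TC71 parental arrays, and by 0.682 to 1.27 from the TC71 72 h arrays. TC71 72 h replicates 1 and 3 differed by only 0.249, against 0.924 to 0.933 between replicate 2 and either of them. Where a named gene's line difference changed its call or its sign, or moved by over 1.5 times, without TC32 parental replicate 1 and TC71 parental replicate 2, it is given with and without these 2 parental arrays. Of 39 measured markers of other cell types, 33 were flat (SD under 0.05) and 0 passed the test of the line difference. Over all 12750 genes 4004 were flat and 0.376% passed, so other cells cannot be judged from the 0 among these markers. Their summed value ran from -2.07 to 1.55 in TC32 72 h arrays against -0.97 to 1.06 in TC32 parental arrays, and from -0.94 to 0.78 in TC71 72 h arrays against -1.07 to 1.72 in TC71 parental arrays. Their part in the results was not tested.

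The line difference passed an adjusted p of 0.05 (limma, Benjamini-Hochberg over all genes) at 48 of 12750 genes, or 0.376%. At 30 genes (0.235%) TC32 had the more positive change, and at 18 (0.141%) TC71 had. At an unadjusted p of 0.05, 1020 genes (8%) passed, where 638 would pass by chance. By the unadjusted p of each line's own change, 31 of the 48 had changed in TC32 without a change in TC71, 7 had changed in TC71 without one in TC32, and 10 had moved in opposite directions. No called gene had changed in the same direction in both lines. In the TC32 class 23 genes rose and 8 fell in TC32, and 10 of the 31 had a flat signal over the TC71 arrays of the comparison. In the TC71 class 5 rose and 2 fell in TC71, and 3 of the 7 were flat over the TC32 arrays. The opposite class held 5 genes that rose in TC32 and fell in TC71, and 5 that did the reverse. In both lines the flat signal gives no level, so a gene below detection and a gene held constant cannot be told apart.

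The number of called genes depended strongly on the fit. It was 164 when the 12 arrays were fitted alone, 77 without the 2 parental arrays that stood apart and 17 without the probe sets that match several transcripts. The balance of directions moved too. The 12 arrays alone gave 83 genes with the more positive change in TC32 and 81 with the more positive change in TC71. Array weights gave 897 and 1050, and replicate number within line as a block gave 53 and 62. Leaving out 1 array gave between 18 genes (without TC71 parental replicate 3) and 100 genes (without TC32 72 h replicate 1). It was 31 without TC32 72 h replicate 2, 28 without TC32 72 h replicate 3, TC32 parental replicate 3 or TC71 72 h replicate 1, 20 without TC71 72 h replicate 3, and 19 without TC71 parental replicate 1. Of the 48 genes, 17 passed whichever array was left out, 28 passed without the 2 parental arrays and 41 passed in the fit of 12 arrays. For 17 of the 48 the adjusted p lay above 0.04.

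Separately, the 72 h change passed at 281 genes (2.2%) in TC32, 145 up and 136 down, and at 19 genes (0.149%) in TC71, 10 up and 9 down. A gene that passed in one line alone is not thereby shown to differ between the lines. Over all genes the 2 changes, which share no arrays, had a Pearson correlation of 0.365 and a Spearman correlation of 0.302, as a description over genes that are not independent. Of 414 genes with an unadjusted p under 0.05 in both lines, 342 moved the same way and 72 in opposite ways. At 481 genes the line difference was at least 1 in size, and 6.24% of these passed.

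**Figure D1:**
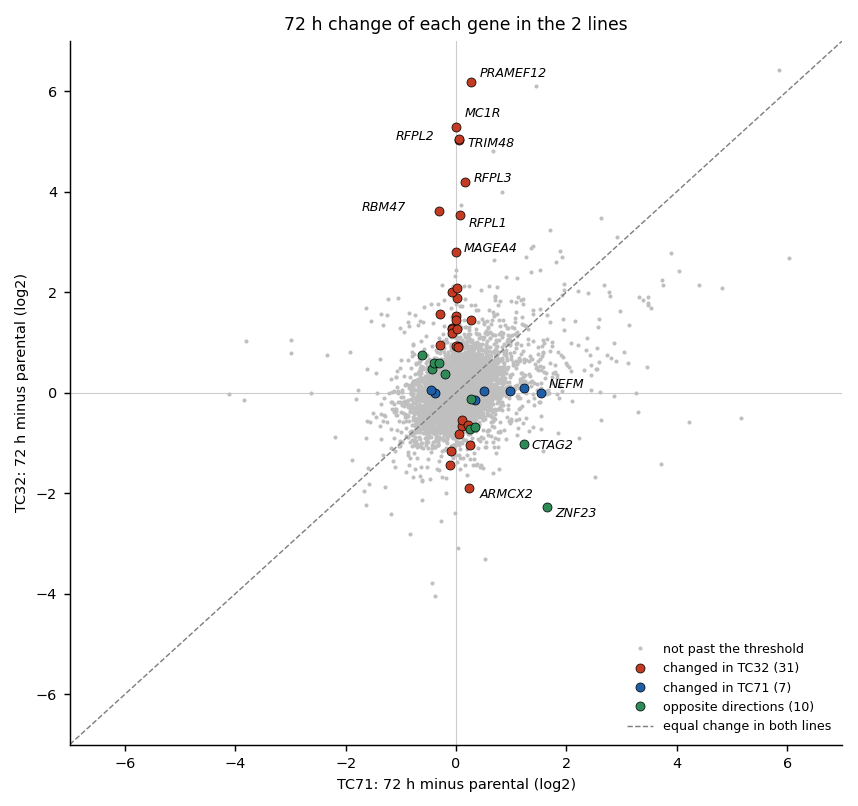
72 h change of each gene in TC32 (vertical axis, log2, 72 h minus parental) against that in TC71 (horizontal axis, log2). Grey points did not pass the test of the line difference, and coloured points are the 31, 7 and 10 genes of the TC32, TC71 and opposite classes; genes of chromosome Y are not drawn. The called genes lie along both zero lines or in the quadrants of opposite sign, and PRAMEF12, MC1R, TRIM48 and RFPL2 lie highest at about no change in TC71.

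Of the 6 genes with the largest called differences in the direction of TC32, 4 were early-embryo genes and the others were MC1R and RBM47. Of a list of 38 such genes, 13 were measured and 5 passed, all in the direction of TC32: PRAMEF12, TRIM48, RFPL2, RFPL3 and RFPL1. Over all genes 0.376% passed, and 0.235% in that direction. The list was written with earlier results of these data known, so its count is a description. These 5 genes had TC71 changes between 0.05 and 0.28, none past the threshold. All 13 measured genes of the list had a TC71 change above 0, as had 8177 of all 12750 genes. The list's median line difference was 0.59, against -0.01 over all genes, with a median change of 2.03 in TC32 and 0.08 in TC71. The list median on each array, with the parental mean of its line as 0, was 1.90, 2.27 and 2.28 in TC32 72 h arrays against -0.09, 0.00 and 0.08 in TC32 parental arrays. In TC71 it was 0.03, 0.05 and 0.12 in 72 h arrays against 0.00, -0.01 and 0.00 in parental arrays. Resistant clones of both lines stood between -0.07 and 0.01. The median line difference was 1.40 without TC32 parental replicate 3, and 0.54 without the 2 parental arrays that stood apart.

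TRIM48 is a member of the tripartite motif family, which holds many ubiquitin ligases. It stood at 4.69, 5.02 and 5.42 in TC32 72 h arrays, against 0.00, 0.01 and 0.00 in TC32 parental arrays. TC71 had 0.00, 0.02 and 0.11 in 72 h arrays, against 0.00, -0.01 and 0.00 in parental arrays. All 3 treated TC32 arrays were high and the other 9 arrays lay within 0.11 of 0. The line difference was 4.99 (standard error, SE, 0.17; adjusted p = 5.09e-09). The array annotation, which names no genome build, places the probe set 220534_at on chromosome 11 at 55029657-55038594, with 5 alignments. Probe sets of the close relatives of TRIM48 can therefore share its signal.

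PRAMEF12 belongs to the PRAME family, whose members are made in germ cells and preimplantation embryos. It stood at 5.60, 6.40 and 7.48 in TC32 72 h arrays, against -0.01, 0.25 and 0.73 in TC32 parental arrays. For TC71 the values were 0.32, 0.02 and 0.40 in 72 h arrays, against -0.04, -0.05 and 0.01 in parental arrays. The groups did not overlap in either line, but the change was 6.17 in TC32 and 0.28 in TC71, and its line difference of 5.90 (SE 0.47; adjusted p = 3.77e-05) was the largest of the 48. The annotation places 216001_at on chromosome 1 at 12834999-12838049.

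RFPL1, RFPL2 and RFPL3 encode ret finger protein-like proteins and lie on chromosome 22. RFPL2 stood at 4.30, 4.95 and 6.01 in TC32 72 h arrays, against -0.01, 0.05 and 0.14 in TC32 parental arrays, and within 0.10 of 0 on every TC71 array. RFPL3 stood at 3.79, 4.81 and 5.12 in TC32 72 h arrays, against -0.01, 0.57 and 0.56 in TC32 parental arrays. Its TC71 values were 0.01, 0.38 and 0.10 in 72 h arrays, against 0.00, -0.02 and 0.00 in parental arrays. RFPL1 stood at 3.23, 3.51 and 4.13 in TC32 72 h arrays, against -0.01, 0.08 and 0.20 in TC32 parental arrays. In all 3 the treated TC32 arrays lay far above every other array. Line differences were 4.97 (SE 0.40; adjusted p = 3.77e-05) for RFPL2, 4.03 (SE 0.36; adjusted p = 1.28e-04) for RFPL3 and 3.46 (SE 0.23; adjusted p = 1.17e-05) for RFPL1. These genes are near-identical copies. The probe sets of RFPL2 (207227_x_at) and RFPL1 (207934_at) are both placed first at 29834571 on chromosome 22, each with 3 alignments, so their rises cannot be assigned to single members of the family. All 5 early-embryo genes passed whichever array was left out and in every other planned setting that could test them.

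The 250 bases upstream of TRIM48 and of PRAMEF12 are shown because these 2 genes had the largest differences of the list. They were searched for the DUX4 motif on both strands. The sequences are from the RefSeq promoter table of build GRCh38.p14, 5′ to 3′ on the plus strand, TRIM48 at chr11:55261905-55262154 and PRAMEF12 at chr1:12773488-12773737. Capitals mark the match.
TRIM48: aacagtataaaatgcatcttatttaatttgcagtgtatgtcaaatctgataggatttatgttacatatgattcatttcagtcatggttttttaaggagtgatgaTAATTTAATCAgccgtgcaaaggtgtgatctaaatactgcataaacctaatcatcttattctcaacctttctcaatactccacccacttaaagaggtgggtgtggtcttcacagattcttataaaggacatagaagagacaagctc
PRAMEF12: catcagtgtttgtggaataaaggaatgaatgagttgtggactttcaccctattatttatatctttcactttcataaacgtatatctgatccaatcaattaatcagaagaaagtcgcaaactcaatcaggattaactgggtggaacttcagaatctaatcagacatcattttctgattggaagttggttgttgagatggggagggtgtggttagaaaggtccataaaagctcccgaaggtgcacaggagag
TRIM48 had 1 match, whose first base lay at -146 from the gene start, and PRAMEF12 had no match in this window. The motif occurred in 139 of 35116 promoters of the table (0.396%). It occurred in 1 of the 10 early-embryo genes with a promoter in the table, and in 1 of 18 genes with one among the 23 that rose in the TC32 class. The motif and the 2 genes were chosen after the values were seen. In all, 5 spellings of the motif were searched, and the looser and stricter ones, found in 0.0285% to 0.817% of promoters, each matched at most 1 early-embryo gene.

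The line difference did not pass at the other 8 measured early-embryo genes. PRAMEF10, FAM90A1 and SNAI1 had changes under 0.01 in both lines. SLC34A2, PNP and KDM4D had changes of 1.92, 0.83 and 0.20 in TC32 and of 0.71, 0.24 and 0.08 in TC71, none past the threshold. PNP stood at 0.67, 0.84 and 0.87 in TC32 72 h arrays, against -0.19, 0.12 and -0.03 in TC32 parental arrays. It stood at 0.03, -0.54 and -1.85 in the TC32 resistant clones, whose spread entered its test. KHDC1L and CCNA1 had positive changes in both lines. KHDC1L, of the KHDC family of RNA-binding proteins of the egg, stood at 10.46, 11.04 and 11.51 in TC32 72 h arrays, against -0.07, 6.86 and 6.95 in TC32 parental arrays. In TC71 it stood at 5.95, 5.99 and 5.46 in 72 h arrays, against 0.06, -0.11 and -0.10 in parental arrays. The treated arrays were above the parental arrays in both lines, and the parental arrays of TC32 were split, with the array labelled replicate 1 at the TC71 parental level. The change in KHDC1L passed in TC32 (6.42; adjusted p = 0.0273) and not in TC71 (5.85; adjusted p = 0.114). Its line difference was 0.58 (95% interval -3.44 to 4.60; adjusted p = 1), and -1.72 (adjusted p = 0.0542) without the 2 parental arrays that stood apart, with the sign reversed. CCNA1, a cyclin of male meiosis, had 3.30, 3.67 and 3.34 in TC32 72 h arrays against 0.35, 2.17 and 1.69 in TC32 parental arrays. It had 1.25, 1.61 and 1.31 in TC71 72 h arrays against -0.56, -0.51 and -0.63 in TC71 parental arrays, and its line difference was 0.08 (95% interval -1.59 to 1.74; adjusted p = 1). Without the 2 parental arrays it was -0.48. Neither change of CCNA1 passed (adjusted p = 0.0719 in TC32 and 0.176 in TC71). The interval of KHDC1L is wide enough to hold a difference of several log2 units in either direction.

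**Figure D2:**
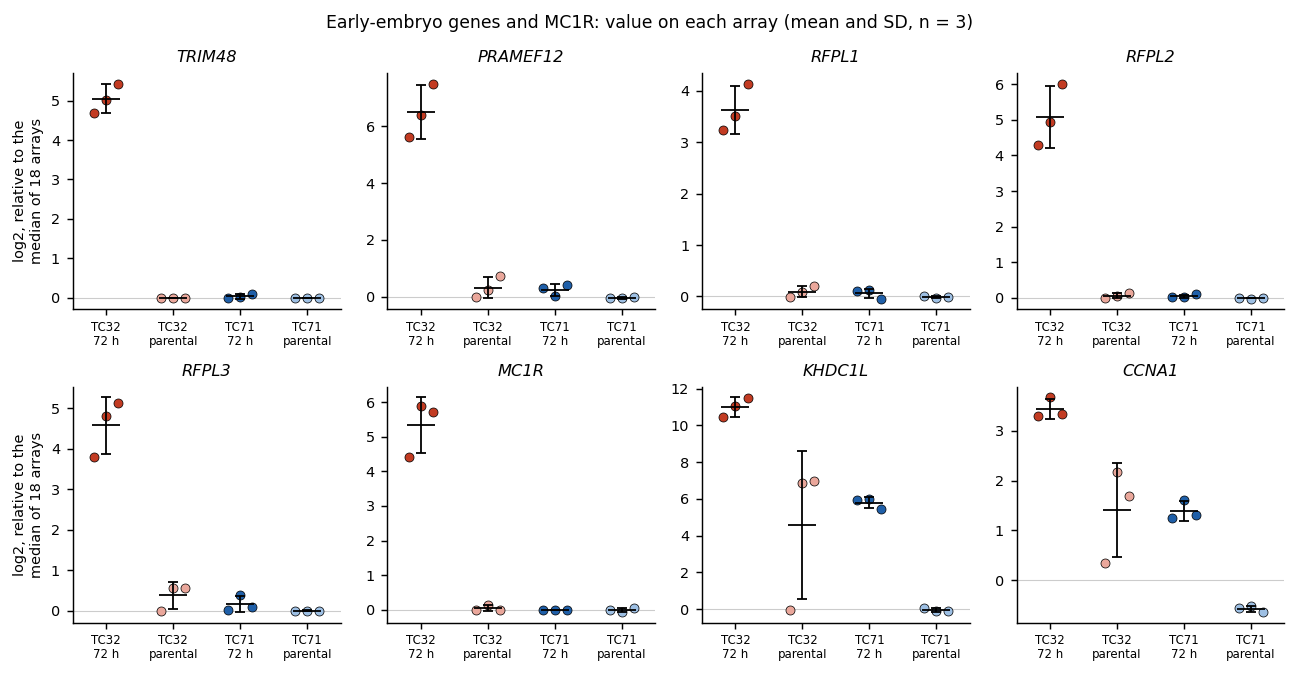
Values of 5 early-embryo genes called by line difference, of MC1R, and of KHDC1L and CCNA1 on each array (log2 relative to the median of 18 arrays), with TC32 72 h, TC32 parental, TC71 72 h and TC71 parental arrays from left to right; lines and bars are the mean and SD of 3 arrays. In the called genes the TC32 72 h arrays rise far above all other arrays, and the TC71 changes are small, the largest 0.28 for PRAMEF12. KHDC1L and CCNA1 are clearly higher at 72 h in both lines.

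Among called genes outside the early-embryo list, the largest rises in TC32 alone were in MC1R, RBM47, MAGEA4, SOX3 and SYT17. MC1R, the melanocortin receptor of pigment cells, stood at 4.41, 5.88 and 5.72 in TC32 72 h arrays, against 0.00, 0.15 and 0.00 in TC32 parental arrays. Its TC71 arrays lay between -0.06 and 0.04, so no TC71 array left the baseline. The line difference was 5.28 (SE 0.37; adjusted p = 1.40e-05). MC1R was the 1 called gene among 14 melanocortin and pigment-cell genes, against 0.376% of all genes, and their median line difference was -0.01. The annotation places 205458_at on chromosome 16 at 89984286-89987385.

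RBM47, an RNA-binding protein of epithelial cells, stood at 3.87, 4.33 and 3.43 in TC32 72 h arrays, against -0.46, 1.68 and -0.41 in TC32 parental arrays. The groups did not overlap in TC32, as the naming rule required, but parental replicate 2 stood well above the other parental arrays. The line difference of 3.91 (SE 0.73; adjusted p = 0.0454) passed in 1 of the 12 fits that left out an array, and had an adjusted p of 0.0836 without the 2 parental arrays that stood apart. SYT17, a synaptotagmin, stood at 1.72, 2.29 and 2.32 in TC32 72 h arrays, against 0.00, -0.01 and 0.12 in TC32 parental arrays, with every TC71 array within 0.03 of 0. The line difference of SYT17 was 2.07 (SE 0.32; adjusted p = 0.0151) and passed in 10 of the 12 fits that left out an array. SOX3, a transcription factor of neural progenitors, stood at 1.77, 2.38 and 1.74 in TC32 72 h arrays, against -0.14, 0.00 and 0.00 in TC32 parental arrays. Its line difference of 2.08 (SE 0.40; adjusted p = 0.0497) passed in 1 of the 12 fits without an array, with an adjusted p of 0.108 without the 2 parental arrays.

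Cancer-testis antigens gave 3 called genes among 28 measured, 2 in the direction of TC32 and 1 in that of TC71, against 0.376% of all genes, and a list median of -0.01. MAGEA4 stood at 4.25, 4.13 and 3.84 in TC32 72 h arrays, against -0.03, 1.92 and 1.95 in TC32 parental arrays, and within 0.10 of 0 on every TC71 array. The TC32 parental arrays were split, with the array labelled replicate 1 at the TC71 level. The line difference was 2.80 (SE 0.53; adjusted p = 0.0497), and it was 2.17 without the 2 parental arrays. It passed in 3 of the 12 fits that left out an array. SSX1, the other called gene on this side, rose by 1.27 in TC32 and by 0.02 in TC71 (adjusted p = 0.00152). Its value joined 2 probe sets that disagreed, with line differences of 2.15 for 206626_x_at and 0.35 for 206627_s_at, and both suffixes mark probes that can bind other transcripts. Other MAGE genes had differences as large that did not pass. MAGEA12 stood at 3.21, 3.40 and 3.22 in TC32 72 h arrays, against -0.64, 3.71 and 3.69 in TC32 parental arrays, and at -4.71, -4.79 and -4.84 in TC71 72 h arrays, against 1.50, -5.59 and 1.20 in TC71 parental arrays. In each line the parental array that stood apart lay on the other side of the rest, and the line difference was 4.83 (adjusted p = 0.685), and 5.70 (adjusted p = 0.0917) without both. Some MAGE genes are near-identical copies, so the probe sets of those members may share signal.

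The other 13 genes that rose in TC32 alone, outside the naming rule, had line differences between 0.87 (NDEL1, a dynein regulator) and 1.87 (CCDC102B). They included FOXRED2, an oxidoreductase of the endoplasmic reticulum (line difference 1.37; adjusted p = 9.78e-04), SMAD9, a signal carrier of BMP receptors (1.26; adjusted p = 0.01), and the ephrin receptor gene EPHA5 (0.93; adjusted p = 0.00807). SMAD9 stood at 0.87, 1.34 and 1.36 in TC32 72 h arrays, against 0.00, 0.00 and -0.01 in TC32 parental arrays, and between -0.12 and 0.00 on the TC71 arrays. CCDC102B, FOXRED2, SMAD9, SSX1 and EPHA5 passed whichever array was left out. The value of EPHA5 joined 2 probe sets that disagreed, with line differences of 1.87 for 215664_s_at and -0.007 for 216837_at.

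The largest called falls in TC32 alone were smaller. ARMCX2, an armadillo-repeat protein encoded on the X chromosome, stood at -2.51, -2.48 and -2.23 in TC32 72 h arrays, against 0.00, -0.79 and -0.77 in TC32 parental arrays, with TC71 arrays between -0.14 and 0.28. Its line difference of -2.12 (SE 0.39; adjusted p = 0.0438) passed in 0 of the 12 fits that left out an array, with an adjusted p of 0.0679 without the 2 parental arrays. SSBP2, a single-stranded DNA-binding cofactor of LIM-domain transcription complexes, stood at -0.94, -1.24 and -1.51 in TC32 72 h arrays, against 0.19, 0.11 and 0.32 in TC32 parental arrays. Its line difference of -1.32 (SE 0.25; adjusted p = 0.0497) passed in 2 of the 12 fits without an array, with an adjusted p of 0.0853 without the 2 parental arrays. CRTAP, a collagen-modifying protein of the endoplasmic reticulum, stood at -0.34, -0.39 and -0.53 in TC32 72 h arrays, against 0.27, 0.68 and 0.92 in TC32 parental arrays. TC71 had 0.21, 0.35 and 0.48 in 72 h arrays, against 0.10, 0.13 and 0.04 in parental arrays, so the groups did not overlap in either line. The line difference of CRTAP was -1.30 (SE 0.20; adjusted p = 0.0144), and it was -1.50 without the 2 parental arrays. It passed in 10 of the 12 fits without an array. PSIP1, the chromatin-tethering protein LEDGF, stood at -0.92, -1.36 and -1.35 in TC32 72 h arrays, against 0.01, -0.13 and -0.03 in TC32 parental arrays. Its 3 probe sets gave line differences from -1.20 to -0.96, and the gene value of -1.06 (SE 0.20; adjusted p = 0.0497) passed in 1 of the 12 fits without an array, with an adjusted p of 0.110 without the 2 parental arrays. The other 4 falls in TC32 alone, outside the naming rule, were in KANK1 (line difference -0.87), SMU1 (-0.85), CREBL2 (-0.77) and PTBP3 (-0.65). KANK1 rested on 213005_s_at (-2.60), while 216762_at and 216763_at had 0.00 and -0.01.

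Of the 7 genes that moved in TC71 alone, NEFM had the largest difference. NEFM, a neurofilament subunit of neurons, stood at 0.05, -0.02 and -0.03 in TC32 72 h arrays, against 0.00, 0.00 and 0.00 in TC32 parental arrays. For TC71 the values were 1.13, 1.59 and 1.90 in 72 h arrays, against 0.00, 0.02 and 0.00 in parental arrays. All 3 treated TC71 arrays were high and the other 9 were at the baseline, with a line difference of -1.53 (SE 0.18; adjusted p = 0.00137). NEFM was the 1 called gene among 57 neuronal genes, against 0.376% of all genes, and their median line difference was -0.01. B3GNT2, an enzyme that extends sugar chains, stood at 0.83, 1.01 and 0.92 in TC71 72 h arrays, against -0.14, -0.06 and 0.00 in TC71 parental arrays. Its TC32 arrays lay between -0.18 and 0.01, and the line difference was -0.94 (SE 0.13; adjusted p = 0.00799). Both genes passed whichever array was left out.

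The other TC71 changes were less secure. APOH, a plasma apolipoprotein of liver, stood at 1.70, 1.29 and 1.70 in TC71 72 h arrays, against 0.74, 0.25 and 0.02 in TC71 parental arrays, with a line difference of -1.14 (SE 0.21; adjusted p = 0.0454; 0.110 without the 2 parental arrays). TMEM248, a membrane protein, stood at 0.00, 0.03 and 0.06 in TC71 72 h arrays, against -0.56, -0.35 and -0.50 in TC71 parental arrays. Its TC32 arrays lay at the treated TC71 level, between -0.01 and 0.04, so the difference of -0.47 (SE 0.08; adjusted p = 0.0386) arose from low TC71 parental arrays. KCNH2, the hERG potassium channel, likewise stood at 0.00, 0.01 and -0.01 in TC71 72 h arrays, against 0.44, 0.23 and 0.50 in TC71 parental arrays. Its line difference was 0.38 (SE 0.07; adjusted p = 0.0497). The value of KCNH2 joined 2 probe sets, 205262_at (0.56) and 210036_s_at (0.20), and neither passed when fitted on its own. PRKDC, the DNA-dependent protein kinase of double-strand break repair, stood at -0.34, -0.41 and -0.38 in TC71 72 h arrays, against 0.17, 0.02 and 0.05 in TC71 parental arrays. Its line difference of 0.50 (SE 0.10; adjusted p = 0.0497) passed in 0 of the 12 fits without an array, with an adjusted p of 0.0678 without the 2 parental arrays. Of these 12 fits, APOH and TMEM248 passed in 2 and KCNH2 in 1. YIPF5, a Golgi membrane protein, was the remaining gene of this class (-0.49; adjusted p = 0.0497).

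The 10 genes of opposite direction included 2 with changes above 1 in both lines. ZNF23, a zinc finger gene, stood at -3.31, -3.24 and -3.55 in TC32 72 h arrays, against 0.00, -1.53 and -1.72 in TC32 parental arrays. In TC71 it stood at 0.75, 0.50 and 0.84 in 72 h arrays, against -1.63, 0.02 and -1.27 in parental arrays. In each line the parental array that stood apart lay near 0, above the others. The treated arrays did not overlap the parental ones in either line, as the naming rule required. The line difference was -3.94 (SE 0.68; adjusted p = 0.0314). It passed in 6 of the 12 fits without an array, and was -3.89 (adjusted p = 0.00186) without the 2 parental arrays. Taken alone, the change of ZNF23 passed in TC32 (adjusted p = 0.0302) and not in TC71 (adjusted p = 0.198).

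CTAG2, a cancer-testis antigen, stood at 0.04, 0.29 and -0.03 in TC32 72 h arrays, against 1.19, 1.04 and 1.14 in TC32 parental arrays. TC71 had 1.17, 1.39 and 0.97 in 72 h arrays, against 0.01, -0.13 and -0.01 in parental arrays. The 2 lines thus exchanged levels, TC32 going down and TC71 up, with a line difference of -2.24 (SE 0.24; adjusted p = 7.16e-04). The gene's value joined 2 probe sets that disagreed. The difference was -4.45 for 215733_x_at and -0.04 for 207337_at. The suffix _x_at marks probes that can bind other transcripts, and CTAG1A and CTAG1B are close relatives of CTAG2. The 3 probe sets listed for CTAG1A and CTAG1B, left out of the gene tests because they name several genes, moved in the same opposite way. Of these, 211674_x_at stood at 0.50, 0.86 and 0.96 in TC32 72 h arrays, against 4.26, 3.54 and 4.08 in TC32 parental arrays. In the other line it had 3.77, 4.92 and 3.62 in TC71 72 h arrays, against -0.50, -0.61 and -1.04 in TC71 parental arrays.

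RBBP6, WNK1, PRPF6 and HAUS3 had positive changes in TC32 and negative ones in TC71. Each passed the test of the line difference, and the 4 TC71 changes taken alone did not pass (adjusted p between 0.0685 and 0.2). The TC32 change of HAUS3 taken alone did not pass either (adjusted p = 0.0506). RBBP6, a ubiquitin ligase that takes part in cleavage and polyadenylation of transcripts, stood at 0.79, 0.74 and 0.61 in TC32 72 h arrays, against 0.28, 0.03 and 0.03 in TC32 parental arrays. For TC71 the values were -0.50, -0.49 and -0.48 in 72 h arrays, against -0.01, -0.06 and -0.18 in parental arrays. Its line difference was 0.999 (SE 0.11; adjusted p = 9.01e-04), and its 3 probe sets gave 1.05, 0.98 and 0.96. WNK1, a kinase that controls ion transport, stood at 0.49, 0.42 and 0.49 in TC32 72 h arrays, against -0.12, -0.15 and -0.08 in TC32 parental arrays. It stood at -0.59, -0.51 and -0.79 in TC71 72 h arrays, against -0.22, -0.40 and -0.33 in TC71 parental arrays. The line difference of WNK1 was 0.89 (SE 0.13; adjusted p = 0.00928), and of its 5 probe sets 211993_at and 211992_at carried most of it, with 2.21 and 1.74. The fall in TC71 rested mainly on 211993_at (change -1.29), while the others had TC71 changes between -0.19 and 0.06.

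PRPF6, a component of the tri-snRNP of the spliceosome, stood at 0.79, 0.99 and 0.96 in TC32 72 h arrays, against 0.16, 0.05 and 0.29 in TC32 parental arrays. In TC71 it stood at -0.68, -1.10 and -0.67 in 72 h arrays, against -0.12, -0.42 and -0.08 in parental arrays. The line difference was 1.36 (SE 0.19; adjusted p = 0.00807). Only 208879_x_at fell in TC71 (change -1.34), while 208880_s_at had a TC71 change of 0.11 and a line difference of 0.41. PRPF6 was the 1 called gene among 65 splicing factors and snRNP proteins, against 0.376% of all genes, and their median line difference was 0.07. At an unadjusted p of 0.05, 20% of these 65 passed, 8 in the direction of TC32 and 5 of TC71, against 8% of all genes. HAUS3, of the augmin complex of the mitotic spindle, stood at 0.28, 0.11 and 0.00 in TC32 72 h arrays, against -0.26, -0.25 and -0.48 in TC32 parental arrays. In the other line it had -0.44, -0.05 and -0.49 in TC71 72 h arrays, against 0.07, 0.02 and 0.22 in TC71 parental arrays, with a line difference of 0.90 (SE 0.16; adjusted p = 0.0345).

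SPTLC1 and RCL1 moved the other way, down in TC32 and up in TC71. Taken alone, their TC32 changes passed and their TC71 changes did not (adjusted p = 0.338 for SPTLC1 and 0.431 for RCL1). SPTLC1, a subunit of the enzyme that starts sphingolipid synthesis, stood at -0.61, -0.69 and -0.68 in TC32 72 h arrays, against 0.29, -0.14 and -0.12 in TC32 parental arrays. It stood at 0.41, 0.42 and 0.32 in TC71 72 h arrays, against 0.00, 0.04 and 0.06 in TC71 parental arrays, and its line difference was -1.02 (SE 0.19; adjusted p = 0.0438; 0.0663 without the 2 parental arrays). RCL1, a factor of ribosomal RNA processing, stood at -0.87, -0.61 and -0.45 in TC32 72 h arrays, against 0.13, -0.02 and 0.11 in TC32 parental arrays. In the other line it had 0.11, 0.29 and 0.15 in TC71 72 h arrays, against -0.24, 0.02 and 0.02 in TC71 parental arrays. Its line difference was -0.96 (SE 0.15; adjusted p = 0.0167). DIAPH1, a formin that builds actin filaments (line difference 0.58), and EPM2A, the glycogen phosphatase laforin (-0.41), completed the class. Of their changes taken alone, only that of DIAPH1 in TC32 passed (adjusted p = 0.0207). Among the 12 fits without an array, HAUS3 passed in 5, SPTLC1 in 3, RCL1 in 11, DIAPH1 in 2 and EPM2A in 0. Without the 2 parental arrays DIAPH1, EPM2A, YIPF5, NDEL1, PTBP3 and SMU1 did not pass (adjusted p between 0.055 and 0.108).

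**Figure D3:**
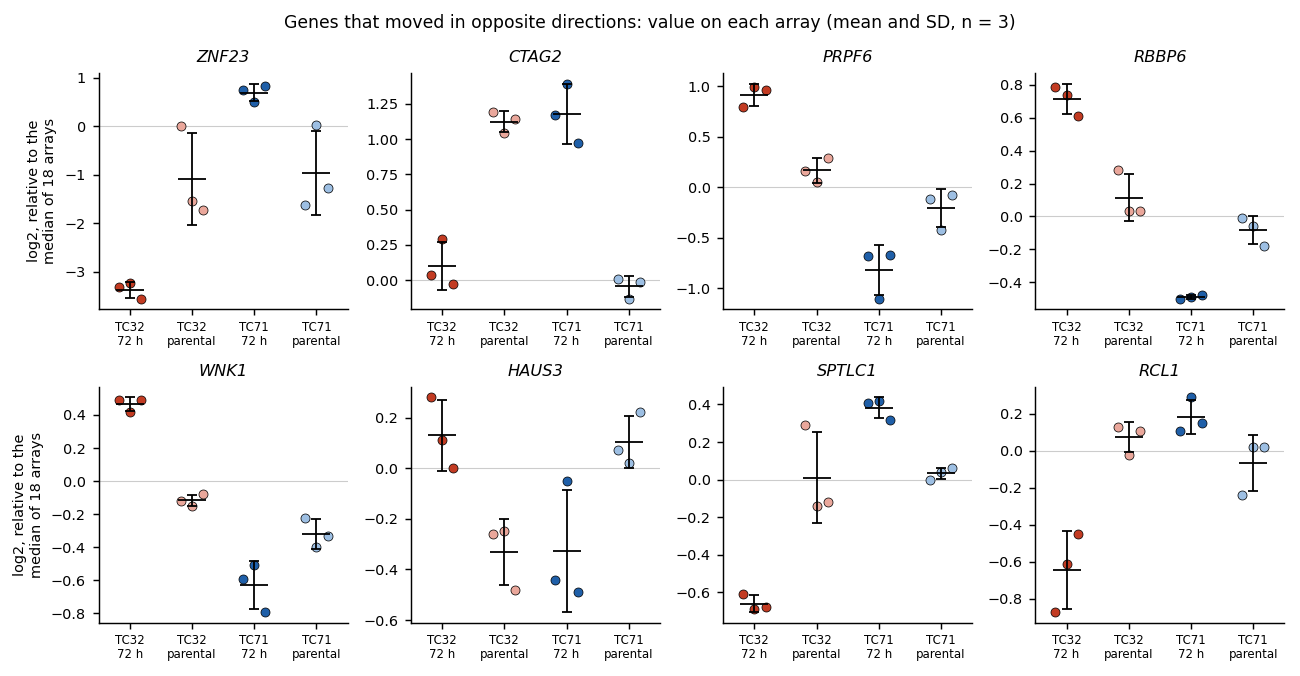
Values of the 8 named genes that moved in opposite directions, on each array (log2 relative to the median of 18 arrays), with TC32 72 h, TC32 parental, TC71 72 h and TC71 parental arrays from left to right; lines and bars are the mean and SD of 3 arrays. In every panel the 72 h arrays lie on one side of the parental arrays in TC32 and on the other side in TC71. The naming rule required this.

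Of the 18 called genes with the more negative change in TC32, 6 lie on chromosome 9, which holds 3.73% of the genes: KANK1, PSIP1, PTBP3, RCL1, SMU1 and SPTLC1. This was noticed after the values were seen. Over the 290 genes of chromosome 9 with an SD of at least 0.1, the median change was -0.19 in TC32 and 0.01 in TC71, and 73.1% of them were lower at 72 h in TC32. The chromosome's median line difference of -0.20 was the lowest of 23 chromosomes, followed by -0.16 for chromosome 15. With the line's parental mean as 0, the chromosome 9 median was -0.22, -0.17 and -0.17 in TC32 72 h arrays, against 0.19, -0.08 and -0.09 in TC32 parental arrays. It was 0.01, -0.03 and 0.01 in TC71 72 h arrays, against -0.01, 0.00 and 0.00 in TC71 parental arrays, and 0.22 to 0.27 in the TC32 resistant clones. The array labelled TC32 parental replicate 1 thus stood above the other TC32 parental arrays, and without the 2 parental arrays that stood apart the median line difference was -0.10 and chromosome 15 was lowest, at -0.20. Of the 6 genes, 2 passed without those arrays. The probe set of SMU1 has 2 alignments, and the first listed is on chromosome 1.

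**Figure D4:**
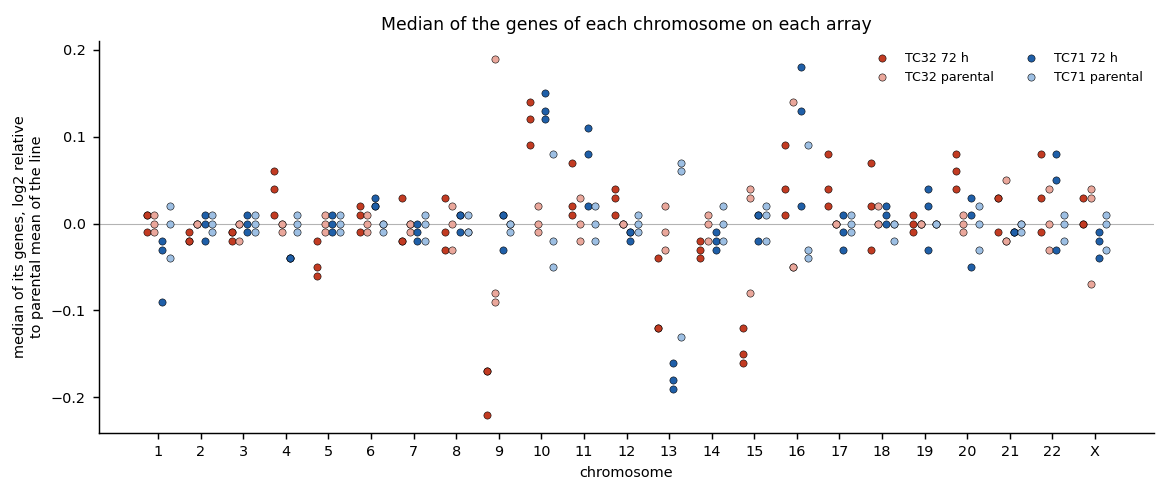
Median of the genes of each chromosome on each array (log2, with the line's parental mean as 0; genes with an SD of at least 0.1), with TC32 72 h, TC32 parental, TC71 72 h and TC71 parental arrays from left to right within a chromosome. The 3 TC32 72 h arrays are lowest on chromosome 9, at -0.22, -0.17 and -0.17, and 1 TC32 parental array stands at 0.19.

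Stress and interferon genes had negative median line differences, with 0 called members, against 0.376% of all genes called. Of 52 genes of the integrated stress response, 46 had a line difference below 0, as had 7999 of all 12750 genes. The median line difference was -0.80, with a median change of 0.30 in TC32 and 1.07 in TC71, and 6 passed at an unadjusted p of 0.05 (11.5%, against 8% of all genes). The list median on each array, with the line's parental mean as 0, was -0.23, 0.41 and 0.67 in TC32 72 h arrays against -0.73, 0.19 and 0.55 in TC32 parental arrays. It was 0.82, 1.50 and 0.90 in TC71 72 h arrays against -0.09, 0.25 and -0.14 in TC71 parental arrays. Treated and parental arrays overlapped in TC32 and did not in TC71. The median line difference was -1.24 without the array labelled TC32 parental replicate 1, -0.51 without TC32 parental replicate 3, and -1.46 without the 2 parental arrays that stood apart.

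The stress genes themselves were scattered over the TC32 parental arrays. DDIT3, the stress factor CHOP, stood at 0.72, 2.21 and 2.63 in TC32 72 h arrays, against -2.78, -0.60 and 0.60 in TC32 parental arrays. It stood at 1.26, 3.41 and 1.12 in TC71 72 h arrays, against -2.33, -1.65 and -1.92 in TC71 parental arrays. The treated arrays of DDIT3 lay above the parental ones in both lines, but neither change passed (adjusted p = 0.221 in TC32 and 0.176 in TC71). For DDIT3 the line difference was -1.12 (95% interval -4.38 to 2.15; adjusted p = 1). TRIB3, a pseudokinase induced by stress, had a line difference of -1.72 (95% interval -5.74 to 2.29; adjusted p = 1), and CHAC1, a glutathione-degrading enzyme, one of -2.96 (95% interval -7.82 to 1.89; adjusted p = 0.940). Without the 2 parental arrays the line differences were -2.20 for DDIT3, -3.18 for TRIB3 and -5.77 for CHAC1, none past the threshold. CHAC1 stood at -0.49, 1.48 and 1.49 in TC32 72 h arrays, against -3.21, 2.54 and 1.64 in TC32 parental arrays, so its 2 agreeing parental arrays were already at the treated level. VLDLR and PSAT1 are named because they had the lowest adjusted p of the list. They were chosen after their values were seen, and INHBE (-5.67) and NUPR1 (-4.79) had larger differences than PSAT1. VLDLR, a lipoprotein receptor, stood at -0.01, 0.35 and 0.63 in TC32 72 h arrays, against -0.49, 3.11 and 2.60 in TC32 parental arrays, and at 3.11, 3.71 and 3.59 in TC71 72 h arrays, against -0.33, 0.01 and -0.39 in TC71 parental arrays. Its line difference was -5.13 (adjusted p = 0.229), and -6.37 (adjusted p = 0.0853) without the 2 parental arrays. PSAT1, an enzyme of serine synthesis, had a TC32 change of -0.80 and a TC71 change of 1.84 (adjusted p = 0.221 for the line difference). Without the 2 parental arrays the line difference of PSAT1 was -3.57 and passed (adjusted p = 0.031).

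Interferon-stimulated genes had a median line difference of -1.14 over 58 genes, 55 of them below 0 and 1 past an unadjusted p of 0.05 (1.72%, against 8% of all genes), with a median change of 0.39 in TC32 and 1.60 in TC71. The list median was 0.03, 0.27 and 0.75 in TC32 72 h arrays against -0.13, 0.00 and 0.09 in TC32 parental arrays, and 0.45, 3.81 and 0.43 in TC71 72 h arrays against 0.00, 0.00 and -0.04 in TC71 parental arrays. In the resistant clones it was -0.01, 3.84 and -0.04 in TC32 and -0.02, 1.28 and -0.02 in TC71. That spread between clones also entered the test of these genes. One array, TC71 72 h replicate 2, carried the difference: without it the median was -0.01. Chaperones and other unfolded-protein-response genes of the endoplasmic reticulum had a median line difference of -0.43 over 40 genes and of -0.08 without that array. MHC class I genes, 4 of which are also on the interferon list, had a median of -0.40 over 19 genes and of -0.27 without it.

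The median changes of the cell-cycle lists were negative in both lines, with arrays that overlapped in TC32. Over 74 S phase genes the median change was -0.41 in TC32 and -0.36 in TC71, with 62 and 73 genes below 0, and the median line difference was 0.00. Over 71 G2/M genes the median change was -0.31 in TC32 and -0.36 in TC71, and the median line difference was 0.08. The S phase list median was -0.15, -0.43 and -0.61 in TC32 72 h arrays against 0.11, 0.04 and -0.19 in TC32 parental arrays, and -0.30, -0.58 and -0.26 in TC71 72 h arrays against 0.02, -0.07 and 0.03 in TC71 parental arrays. The G2/M list median was 0.06, -0.27 and -0.71 in TC32 72 h arrays against 0.17, 0.20 and -0.39 in TC32 parental arrays, and -0.33, -0.48 and -0.32 in TC71 72 h arrays against -0.01, 0.05 and -0.03 in TC71 parental arrays. In both lists treated and parental arrays overlapped in TC32 and did not in TC71. RRM2, a ribonucleotide reductase subunit, had a change of -1.21 in TC32 (adjusted p = 0.032) and -0.76 in TC71 (adjusted p = 0.273). Its line difference was -0.45 (95% interval -1.24 to 0.35; adjusted p = 0.976), and -0.23 without the 2 parental arrays. Of 28 lists, 23 had no called gene. With 0.376% of all genes called, few called members can be expected in lists of this size. The 23 lists other than the early-embryo, stress, unfolded-protein, interferon and MHC class I lists had medians between -0.07 and 0.20. At an unadjusted p of 0.05, from 0% to 20% of their genes passed, against 8% of all genes. The share was highest for splicing factors (20%, 8 in the direction of TC32 and 5 of TC71) and cytosolic ribosomal proteins (17.95%, 1 and 13). Next came tubulins and microtubule-binding proteins (15.6%, 3 and 4) and histones (13.2%, 7 and 0).

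**Figure D5:**
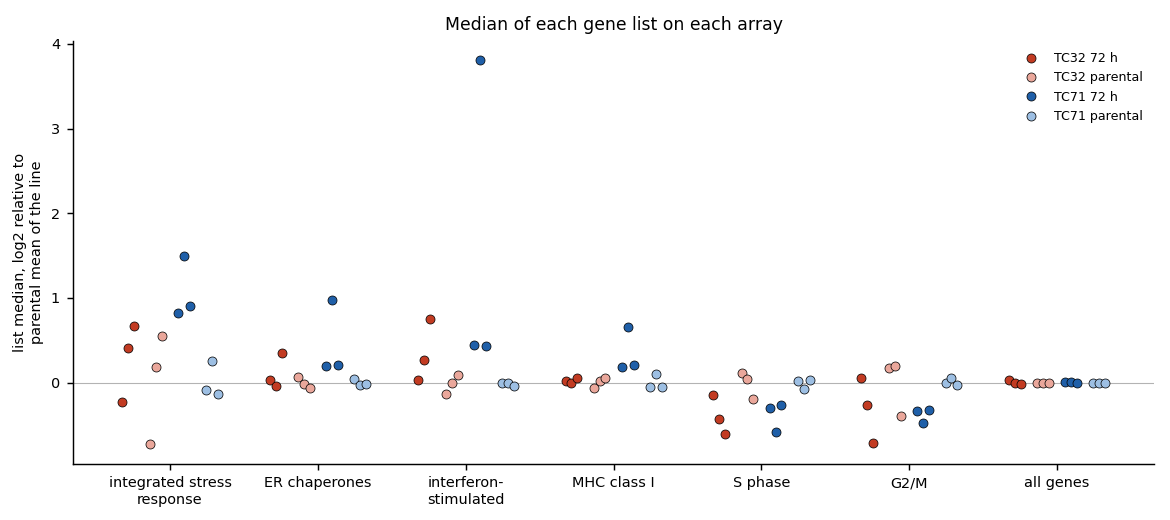
Median of 6 gene lists and of all genes on each array (log2, with the line's parental mean as 0), with TC32 72 h, TC32 parental, TC71 72 h and TC71 parental arrays from left to right within a list. TC71 72 h replicate 2 stands at 3.81 for interferon-stimulated genes, the TC32 parental arrays spread from -0.73 to 0.55 for the integrated stress response, and the S phase medians at 72 h lie below the parental ones in TC71 and overlap them in TC32.

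Genes tied to the compound's proposed target did not pass. DHX9 stood at -0.02, -0.89 and -0.43 in TC32 72 h arrays, against 1.07, -0.03 and -0.23 in TC32 parental arrays. In the other line it had -0.72, -1.52 and -0.84 in TC71 72 h arrays, against 0.03, -0.09 and 0.52 in TC71 parental arrays, with a line difference of 0.47 (95% interval -0.83 to 1.76; adjusted p = 1), and 0.99 (adjusted p = 0.757) without the 2 parental arrays. The line difference of EWSR1 was -0.30 (95% interval -0.59 to -0.02; adjusted p = 0.588) and that of FLI1, the gene of the other fusion partner, -0.23 (95% interval -0.88 to 0.43; adjusted p = 1), and -0.05 without the 2 parental arrays. These probe sets need not read the fusion transcript. CCND1, cyclin D1, had a line difference of 0.22 (95% interval -0.26 to 0.69; adjusted p = 1), and its probe sets had opposite signs. ABCB1, the drug efflux pump, changed by 1.60 in TC32 and 0.67 in TC71, neither past the threshold, with a line difference of 0.92 (95% interval -0.73 to 2.58; adjusted p = 0.982), and 0.56 without the 2 parental arrays. Among 48 EWS-FLI1 activated and 39 repressed targets, 0 passed, against 0.376% of all genes, with median line differences of -0.07 and -0.01. At an unadjusted p of 0.05, 3 (6.25%) and 1 (2.56%) passed, against 8% of all genes.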

How the data were processed

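Total RNA was hybridised to Affymetrix U133A 2.0 arrays. The authors deposited log2 values made with GeneSpring GX 12.1, per the labels and design text; the array scaling and summary method are not given in the sources used here. The deposited log2 values have a median of 0 per probe set over 18 arrays. A second deposited table was identical. Of 22277 probe sets, 62 controls, 583 naming several genes and 1258 naming none were left out; the 20374 others were averaged into 12750 genes, with 1672 symbols updated. No gene was filtered out.

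Groups came from the labels. limma 3.58.1 (R 4.3.3) fitted 6 group means to all 18 arrays (residual degrees of freedom 12, prior 0.827), and Benjamini-Hochberg adjustment ran over all genes. Genes were classed by an unadjusted p of 0.05 in each line. Named were the 10 largest called differences on each side whose arrays did not overlap in the line that moved more. Also named were up to 8 opposite genes whose arrays did not overlap in either line, and up to 6 TC71 genes. To these came 2 genes of each list with at least 3 called members, and 9 genes always given. The members, the 28 gene lists and this rule were chosen with earlier results of these data known. Genes outside the rule are named as such or as list members with large differences. Alternatives covered normalization, probe set choice, filters, empirical Bayes settings, array weights, arrays fitted, blocks, thresholds and each array left out. Samples with the same replicate number were not treated as pairs.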

Additional observations from a re-analysis of the deposited data

Results flagged for a closer look

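The test of the line difference itself passed for the 28 named genes listed here, and no explanation was weighed. With TC32 as the line that moved, these differences (TC32 change minus TC71 change, log2) were 5.90 for PRAMEF12, 5.28 for MC1R, 4.99 for TRIM48, 4.97 for RFPL2, 4.03 for RFPL3, 3.91 for RBM47, 3.46 for RFPL1, 2.80 for MAGEA4, 2.08 for SOX3 and 2.07 for SYT17. On the other side they were -2.12 for ARMCX2, -1.32 for SSBP2, -1.30 for CRTAP and -1.06 for PSIP1. With TC71 as the line that moved, they were -1.53 for NEFM, -1.14 for APOH, -0.94 for B3GNT2, -0.47 for TMEM248, 0.50 for PRKDC and 0.38 for KCNH2. With both lines moving in opposite directions, they were -3.94 for ZNF23, -2.24 for CTAG2, -1.02 for SPTLC1, -0.96 for RCL1, 1.36 for PRPF6, 1.0 for RBBP6, 0.90 for HAUS3 and 0.89 for WNK1.

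Probe sets outside the gene tests were fitted in the same way with all probe sets, and 8 of 1841 that name several genes or none passed. The 3 probe sets of CTAG1A and CTAG1B had line differences of -8.01 (211674_x_at; adjusted p = 2.29e-05), -7.28 (210546_x_at; adjusted p = 4.98e-05) and -4.36 (217339_x_at; adjusted p = 8.94e-04), lower in TC32 and higher in TC71 at 72 h. The probe set of TRIM49 and TRIM49L2, relatives of TRIM48, had 3.96 (221154_at; adjusted p = 8.99e-09), with 4.22, 3.67 and 4.17 in TC32 72 h arrays against 0.00, 0.05 and 0.03 in TC32 parental arrays. The amylase probe set 208498_s_at had 1.66 (adjusted p = 0.0388). Of the probe sets without a gene, 222214_at had 0.87, 214949_at 0.61 and 202648_at -0.62. Among all probe sets, 208312_s_at (listed for PRAMEF1 and PRAMEF2, 1.98; adjusted p = 0.491) and 217365_at (PRAMEF11, 0.83; adjusted p = 0.698) did not pass. No control samples other than the parental arrays exist for these comparisons.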

How the results depend on the processing

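The count of 48 called genes (TC32 class 31, TC71 class 7, opposite class 10) was within 1.5 times of itself with quantile normalization again (39), arrays centred on their median (44), the probe set with the largest SD (62), every probe set on its own (62) and an SD of at least 0.1 (54). It moved further under the settings given here as total, TC32, TC71 and opposite: 17, 9, 3 and 5 without _x_at and _s_at probe sets; 21, 15, 2 and 4 with trend and robust empirical Bayes; 1947, 777, 530 and 485 with array weights; 164, 71, 29 and 58 with the 12 arrays alone; 21, 13, 3 and 5 with TC71 72 h replicates 1 and 3 averaged; 77, 26, 19 and 32 without the 2 parental arrays that stood apart; 16, 10, 2 and 4 at an adjusted p under 0.01; 30, 24, 2 and 4 with a difference of at least 1. With the 12 arrays alone and without the 2 parental arrays, chosen after the data were seen, they were 535, 141, 137 and 240. In single classes, quantile normalization gave 16 TC32 and 16 opposite genes, the SD filter 3 TC71 genes, the largest-SD probe set 18 opposite genes and single probe sets 22 opposite ones. Leaving out 1 array gave 18 to 100 genes in all, 11 to 69 in the TC32 class, 2 to 9 in the TC71 class and 4 to 22 in the opposite class; the cause was not tested. With replicate number as a block the counts were 100, 37, 14 and 40, and with number within line as a block 115, 25, 17 and 53. Deviations of same-numbered arrays correlated at 0.23, 0.01 and 0.37 in TC32 and at -0.02, 0.02 and 0.02 in TC71. With 3 values in each line, these correlations cannot settle whether the numbers pair the arrays. Of 767 alternative values for the 28 named called genes, 517 stayed past the threshold, 250 did not and 0 changed sign. Among the genes that did not pass, CHAC1 passed with array weights (-4.25) and with the 12 arrays without the 2 parental arrays (-5.77), and CCND1 had -0.18 without _x_at and _s_at probe sets. Without signals or detection calls, a dim gene cannot be told from an unchanged one.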
